A study of Homo sapiens with 20 samples.

Results

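Distal regions with an E-box were the regions bound by BMAL1 or HIF2α in A-498 cells whose strongest summit lay more than 1 kb from every annotated transcript start and had the hexamer CACGTG within 100 bp. To find them, the 4 peak lists of the series were merged wherever peaks shared at least 1 bp, which gave 8280 regions. Each region was placed at the summit of its peak with the highest −log10 p. Of these regions, 4548 were distal and 508 had an E-box. Both conditions were met by 210 regions, while 298 regions with an E-box were promoter regions, meaning within 1 kb of a start, and 4338 distal regions had no E-box. The rule used position and sequence and no measured level beyond the choice of summit, so the lists in which these 210 regions appeared are a result.

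A-498 is a clear cell renal carcinoma cell line. Cells carried a lentiviral shRNA, either the control hairpin (shCNT) or a hairpin against BMAL1 (shBMAL1), and were profiled by CUT&RUN, in which an antibody directs a nuclease to cut DNA around the protein it binds. The 20 libraries formed 6 groups, with 4 libraries each for BMAL1 and HIF2α under either hairpin and 2 each for the IgG control. The BMAL1 and HIF2α groups each had a single peak list, IgG was not represented by a list, and without replicate lists no difference between lists could be tested. The BMAL1 list labelled shBMAL1 held more peaks (4261) than the one labelled shCNT (2350), so the number of peaks is no check of the depletion. Intervals below are 95% intervals over regions (Wilson for a share, Newcombe for a difference), cover counting error alone and say nothing of the spread between libraries. Presence and absence below are therefore statements about lists and not about replicated conditions.

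BMAL1 pairs with CLOCK or NPAS2 and binds E-boxes, through which it drives the genes of its own repressors (PER, CRY and REV-ERB proteins) and of clock output factors. HIF2α pairs with ARNT and binds the hypoxia response element (HRE), whose core is ACGTG or GCGTG. The E-box CACGTG holds an ACGTG on each strand, so a single site can be read as either element, and many other factors of the basic helix-loop-helix family, such as MYC, USF and TFE3, bind the same hexamer.

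The sequences below come from the GRCh37 reference, on the plus strand from 5′ to 3′, 60 bases each, with the E-box in capitals. They carry the comparisons that follow. The first 6 regions were BMAL1-bound, lay at clock genes or held a tandem E-box, and had no HIF2α peak. In 3 of them (HLF, SSPN and the non-coding gene) a second hexamer with at most 1 mismatch, also in capitals, stood 6 or 7 bp from the first, the arrangement known for paired binding of CLOCK-BMAL1.
NR1D1 intron (chr17:38255384-38255443): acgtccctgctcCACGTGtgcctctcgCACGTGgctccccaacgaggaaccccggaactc
CRY2 intron (chr11:45881407-45881466): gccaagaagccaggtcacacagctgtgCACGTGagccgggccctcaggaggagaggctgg
PER1 intron (chr17:8057029-8057088): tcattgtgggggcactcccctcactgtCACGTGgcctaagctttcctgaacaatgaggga
HLF, 26.5 kb from its start (chr17:53315722-53315781): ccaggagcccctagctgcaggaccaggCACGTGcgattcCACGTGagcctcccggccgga
SSPN and BHLHE41, intergenic (chr12:26267448-26267507): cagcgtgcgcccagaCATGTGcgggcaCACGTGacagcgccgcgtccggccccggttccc
non-coding gene nearest to UBE2L5 (chr13:30969725-30969784): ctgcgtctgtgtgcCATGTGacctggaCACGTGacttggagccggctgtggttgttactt

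The next regions are examples bound by HIF2α alone under both hairpins, shown so that the bases beside the hexamer can be compared. Not every such region is shown. The one near ITGA5, left out here, has the octamer CCACGTGA, which was commoner in BMAL1 regions (below).
BACH1 intron (chr21:30631438-30631497): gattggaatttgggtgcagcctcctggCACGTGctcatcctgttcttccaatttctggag
EGLN3 intron (chr14:34529650-34529709): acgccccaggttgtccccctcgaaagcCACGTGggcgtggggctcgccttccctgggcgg
PFKFB3, 75.2 kb from its start (chr10:6341352-6341411): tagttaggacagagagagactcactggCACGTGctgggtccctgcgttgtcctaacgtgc
JUN, 28.4 kb from its start (chr1:59221329-59221388): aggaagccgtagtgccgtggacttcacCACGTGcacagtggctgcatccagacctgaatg

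The last set had a peak in all 4 lists and holds the 3 strongest such regions.
DIRC3, nearest coding gene TNS1 (chr2:218518095-218518154): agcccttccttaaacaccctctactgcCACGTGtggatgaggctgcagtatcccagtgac
PDGFA, 19.3 kb from its start (chr7:579279-579338): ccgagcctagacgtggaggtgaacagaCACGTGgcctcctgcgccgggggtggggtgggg
AHDC1 intron (chr1:27869062-27869121): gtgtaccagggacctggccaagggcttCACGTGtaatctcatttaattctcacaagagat

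The 210 regions were found more often in the shCNT BMAL1 list and less often in the shBMAL1 BMAL1 list than other distal regions were. The shCNT BMAL1 list held 90 of them (42.9%, interval 36.4 to 49.6%), against 28.3% of all 8280 regions and 22.2% of distal regions without an E-box. That difference of 20.6 percentage points had an interval of 14.0 to 27.5. Under shBMAL1 the BMAL1 list held 79 of them (37.6%, interval 31.3 to 44.3%), although it held 51.3% of all regions and 52.3% of distal regions without an E-box. Here the difference was −14.7 points (interval −21.2 to −7.83). These are shares of the union of 4 lists, so a higher E-box frequency in the other lists lowers the share of the shBMAL1 BMAL1 list by construction. Within its own distal regions that list was not short of E-boxes, with 3.36% beside 2.75% in flanking windows (below).

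In the HIF2α lists the same regions stood close to the background. The shCNT HIF2α list held 62 (29.5%, interval 23.8 to 36.0%), where it held 28.3% of all regions and 24.9% of distal regions without an E-box. The shBMAL1 HIF2α list held 81 (38.6%, interval 32.2 to 45.3%), beside 38.4% of all regions and 40.5% of distal regions without an E-box. Both differences from the distal background, 4.58 and −1.93 points, had intervals that included 0 (−1.32 to 11.2 and −8.42 to 4.96). Distal regions with an HRE core and no E-box behaved differently: 42.3% of these 1611 regions were in the shCNT HIF2α list and 57.9% in the shBMAL1 HIF2α list, and the E-box regions were lower by 12.8 points (interval of the difference −19.1 to −5.89) and 19.3 points (−26.1 to −12.2). Promoter regions with an E-box were in the shCNT BMAL1 list more often still, at 53.0%, and the distal ones stood 10.2 points lower (interval of the difference −18.7 to −1.34). In the other 3 lists the differences between distal and promoter E-box regions had intervals that included 0.

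**Figure D1:**
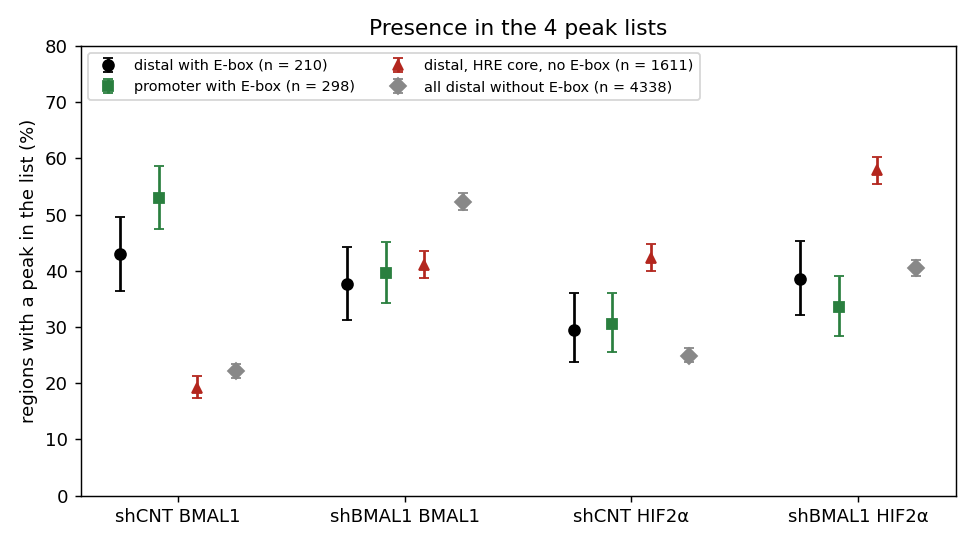
Share of regions (%, vertical axis) with a peak in each of the 4 lists, for 4 sets of regions. Points are shares and bars 95% Wilson intervals over regions. Distal E-box regions (black) lay above the distal regions without an E-box (grey) in the shCNT BMAL1 list, at 42.9 against 22.2%, and below them in the shBMAL1 BMAL1 list, at 37.6 against 52.3%.

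By single list the 210 regions differed from others as given above. By the number of lists and by antibody they were divided much as other regions were, with a somewhat higher share in 3 lists. In 1 list alone were 141 of them (67.1%), where the share was 66.6% of all regions and 70.5% of distal regions without an E-box. A further 42 were in 2 lists, 21 in 3 (10.0%, against 7.20% and 6.32%) and 6 in all 4 (2.86%, against 2.90% and 2.07%). The commonest combination was the shCNT BMAL1 list alone, with 46 regions, followed by the shBMAL1 BMAL1 list alone with 39, the shBMAL1 HIF2α list alone with 35 and the shCNT HIF2α list alone with 21. A further 15 regions were in both BMAL1 lists and no other, and 15 in both HIF2α lists and no other. Combinations were counted among the members alone and the lists differ in length, so their order has no background here. Counted by antibody, 100 regions (47.6%) had BMAL1 peaks alone, 71 (33.8%) HIF2α peaks alone, and 39 (18.6%) peaks of both. Over all regions the same shares were 49.1, 33.9 and 17.1%, and in distal regions without an E-box 49.2, 35.7 and 15.1%, with an interval of the difference that included 0 for each class.

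**Figure D2:**
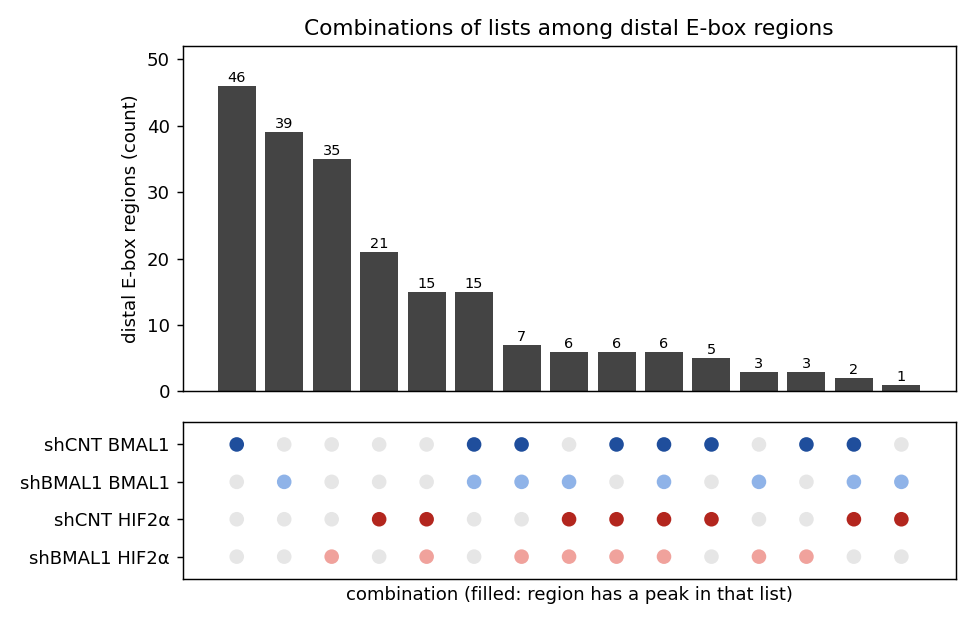
Number of distal E-box regions (bars, vertical axis) for each of the 15 combinations of lists, which the filled dots underneath give. The shCNT BMAL1 list alone was the commonest combination, with 46 regions, and 6 regions were in all 4 lists. Other regions were not counted in this way, so the order has no background.

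The E-box was most frequent at the summits of the shCNT BMAL1 list. Among distal regions of that list 8.54% had an E-box within 100 bp of the summit (90 of 1054, interval 7.0 to 10.4%), and windows of the same length 2 kb to either side had one in 2.75%, a ratio of 3.10. The shBMAL1 BMAL1 list had a share of 3.36% (interval 2.71 to 4.17%) beside flanks of 2.75%, a ratio of 1.22, and the intervals of share and flank overlapped. For HIF2α the shares were 5.42% in shCNT (interval 4.25 to 6.89%) and 4.41% under shBMAL1 (interval 3.56 to 5.44%), at 1.80 and 1.50 times their flanks. In bins of 100 bp, the shCNT BMAL1 share reached 3.80 and 5.03% on the 2 sides of the summit, and 1.33% in the bin farthest to the left within 1 kb. The shBMAL1 BMAL1 list had 1.62 and 1.96% beside the summit. The latter was its highest bin, above a next value of 1.87% in bins 200 to 500 bp away, and its other bins went down to 0.979%.

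**Figure D3:**
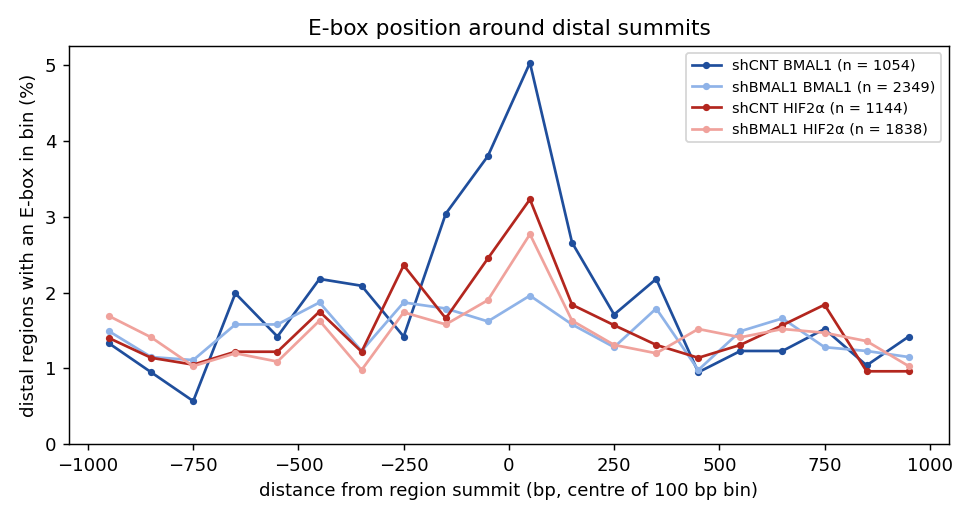
Share of distal regions with an E-box (%, vertical axis) in 100 bp bins by distance from the region summit (bp, horizontal axis), 1 line per list. The shCNT BMAL1 line peaks beside the summit at 5.03%, both HIF2α lines have lower peaks (3.23 and 2.77%), and the shBMAL1 BMAL1 line has its highest value there too, at 1.96%, little above 1.87% elsewhere.

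Peak strength went with the E-box in the shCNT BMAL1 list but not evenly. When the distal regions of a list were split into 5 equal parts by −log10 p, the E-box share in shCNT BMAL1 was 4.74% in the weakest part (interval 2.59 to 8.50%). It then took values of 9.48, 6.67 and 7.11%, and reached 14.7% in the strongest part, whose interval was 10.5 to 20.1%. In the shBMAL1 BMAL1 list the shares ran from 2.13 to 4.69% and the strongest part, at 3.40%, lay within the intervals of the others. The shCNT HIF2α list had its lowest share, 3.49%, in its strongest part (interval 1.78 to 6.74%). The shBMAL1 HIF2α list went from 2.99 to 5.71%, with overlapping intervals. Ranked within whole lists, 11 of the 90 shCNT BMAL1 members (12.2%) ranked above the 90th percentile, compared with 5.08% of distal regions without an E-box in that list and 19.0% of promoter E-box regions.

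**Figure D4:**
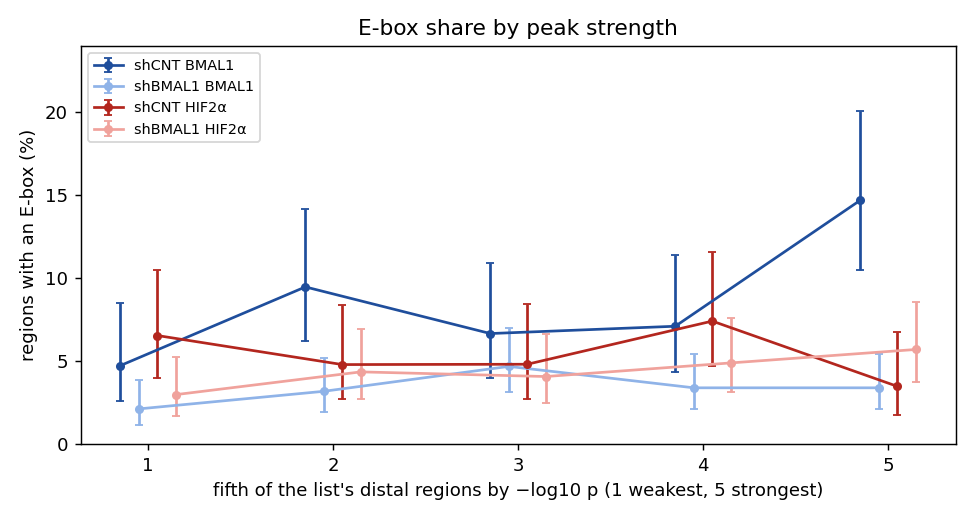
Share of distal regions with an E-box (%, vertical axis) in each of 5 equal parts of a list's distal regions by −log10 p (horizontal axis, 5 the strongest). Bars are 95% Wilson intervals. The strongest part of shCNT BMAL1 stands highest, at 14.7%, and the other lists stay between 2.13 and 7.42%.

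Of the 90 distal E-box regions with a shCNT BMAL1 peak, 30 also had a BMAL1 peak under shBMAL1 (33.3%, interval 24.5 to 43.6%) and 60 did not. Over all regions 47.7% of shCNT BMAL1 regions were found again, and 46.0% of distal ones without an E-box. The difference from the latter was −12.6 points (interval −22.0 to −1.91). Averaged within quartiles of shCNT peak strength it was −15.5 points, and with the E-box sought only around the shCNT summit it was −13.6 (interval −22.9 to −3.01). The interval included 0 when the E-box could lie near any summit of the region (−3.26 points, interval −12.5 to 6.52), when all lists were shortened to equal length (−4.91, interval −13.9 to 5.56) and under 5 other settings given in the closing section. Promoter E-box regions were found again at a like rate of 34.8%, and the difference between distal and promoter had an interval of −13.2 to 10.9 points.

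The lists differed in background, on which the limit of detection depends. The genome-wide background recovered from the peak scores was 0.168 fragments per position in the shCNT BMAL1 list and 0.0839 under shBMAL1, so that the smallest pileup (fragments over the summit) that could pass at that background was 4 in the former and 3 in the latter. Scaled by the ratio of these backgrounds, 0.500, 43 of the 60 lost E-box regions (71.7%) would still have had a pileup of 3 or more, as against 53.6% of the 521 lost distal regions without an E-box. Scaled pileups of 6 or more, double the limit, were reached by 5 of the 60 and by 10 of the 521. In the 30 regions with a peak in both BMAL1 lists, the pileup relative to background was higher under shBMAL1 in 26, by a median of 0.67 on the log2 scale (quartiles 0.32 and 0.96). The median in the 443 distal regions without an E-box was 1.00 (quartiles 0.58 and 1.26). A region had to reach a higher ratio to be listed where the background was lower, and what part this had in the upward medians was not tested.

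For HIF2α, 33 of 62 distal E-box regions were found again under shBMAL1 (53.2%, interval 41.0 to 65.1%). The share was 55.8% over all regions and 58.9% in distal regions without an E-box, a difference of −5.65 points whose interval (−18.2 to 6.58) included 0. Against distal regions with an HRE core and no E-box, of which 69.4% were found again, the difference was −16.1 points (interval −28.8 to −3.74). In the 33 regions with a peak in both lists the scaled ratio had a median of 0.81 on the log2 scale, and it was above 0 in 31. Distal regions without an E-box had a median of 0.67, with 571 of 637 above 0, so the upward shift was not particular to the E-box regions. The HIF2α lists differed in the same direction, with backgrounds of 0.209 and 0.109 fragments per position.

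**Figure D5:**
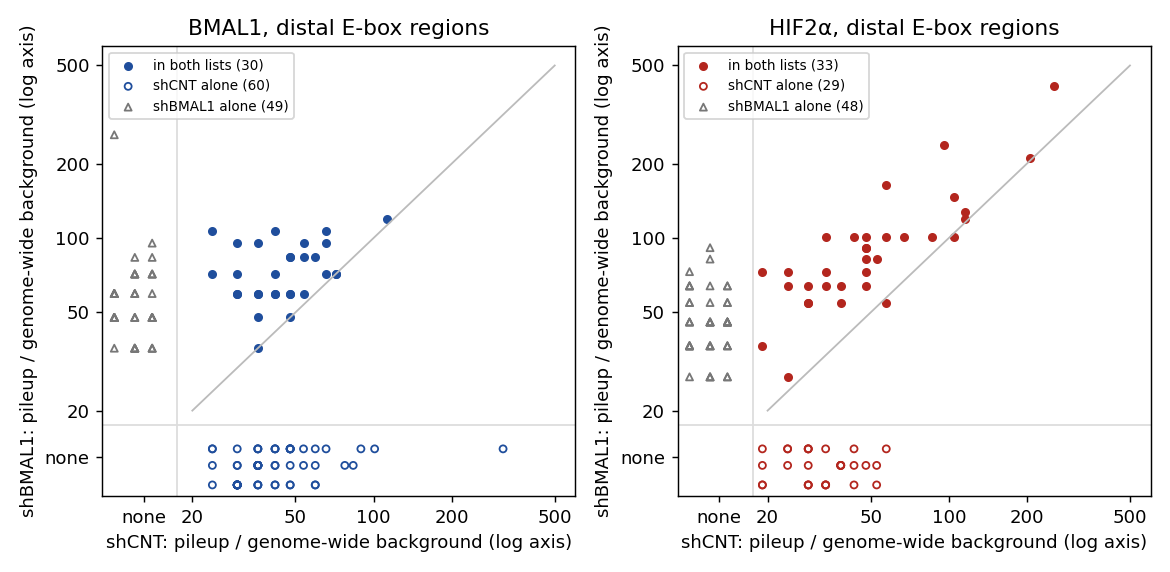
Pileup at distal E-box regions divided by the genome-wide background of the list, under shCNT (horizontal) and shBMAL1 (vertical), both on log axes, for BMAL1 (left) and HIF2α (right). The diagonal marks equal values. Filled points had a peak in both lists (30 and 33 regions), and open symbols beyond the thin grey lines, at "none", had a peak in 1 list alone and are spread within that margin only for legibility. The isolated open circle for BMAL1 is the NR1D1 intron, with a shCNT pileup of 53 and no shBMAL1 peak.

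The regions that appeared only under shBMAL1 numbered 49 for BMAL1 and 48 for HIF2α. Read from the other side, 38.0% of the 79 shBMAL1 BMAL1 members had a shCNT BMAL1 peak, compared with 26.3% of all shBMAL1 BMAL1 regions and 19.5% of distal regions without an E-box, a difference of 18.5 points (interval 8.41 to 29.6). For HIF2α 40.7% of the 81 shBMAL1 members had a shCNT peak, near the 41.1% of all regions and 36.3% of distal regions without an E-box (difference 4.49, interval −5.81 to 15.6). The 49 BMAL1 regions had a median pileup of 4.00 and the 30 found under both hairpins 6.00 in the same list, the same medians as distal regions without an E-box. The GC content of the 49 around the summit was lower, with a median of 49.8%, than the 55.2% of the 60 regions lost from the shCNT list.

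BMAL1 and HIF2α peaks met at these regions about as often as at other BMAL1 regions. Of the 90 shCNT BMAL1 members, 19 had a shCNT HIF2α peak (21.1%, interval 14.0 to 30.6%), while the share was 25.6% over all shCNT BMAL1 regions and 21.9% in distal regions without an E-box (difference −0.777, interval −8.43 to 9.07). Those 19 made up 30.6% of the 62 shCNT HIF2α members, 11.1 points above the 19.5% of distal HIF2α regions without an E-box (interval 0.783 to 23.7). The same share was 25.6% over all shCNT HIF2α regions and higher, at 47.3%, in promoter E-box regions of that list. Under shBMAL1, 22 regions had peaks of both antibodies, 27.8% of the BMAL1 and 27.2% of the HIF2α members. The shares were 21.4 and 28.6% over all regions and 21.0 and 27.1% in distal regions without an E-box, and both intervals of the difference from the latter included 0. The summits of the 2 antibodies were a median of 96.0 bp apart under shCNT (n = 19) and 72.5 bp under shBMAL1 (n = 22). Within 50 bp were 5 and 8 pairs (26.3 and 36.4%). In distal regions without an E-box the medians were 132 and 118 bp, with 21.8 and 28.2% within 50 bp. Lists made under 1 hairpin may share a control library, since the control used was not given in the sources used here.

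The bases beside the hexamer differed between regions with BMAL1 peaks alone and regions with HIF2α peaks alone. Read on either strand, the octamer CCACGTGA surrounded the nearest E-box in 26 of 100 BMAL1 regions (26.0%, interval 18.4 to 35.4%) and in 5 of 71 HIF2α regions (7.04%, interval 3.05 to 15.4%), a difference of 19.0 points (interval 7.63 to 29.1). It made up 11.5% of all E-boxes in the genome and surrounded the nearest E-box in 21.8% of promoter E-box regions. Members in the shCNT BMAL1 list had it in 25.6%. Those in the shBMAL1 BMAL1 list without a shCNT BMAL1 peak had it in 12.2% (6 of 49), and regions with peaks of both antibodies in 7.69% (3 of 39). The NR1D1 window shown above has it in neither hexamer, and PER1 has it on the minus strand. The region near ITGA5, with HIF2α peaks under both hairpins and no BMAL1 peak, has it too. GCACGTGC went the other way, with 5.00% of BMAL1 and 19.7% of HIF2α regions (difference −14.7, interval −25.8 to −4.93) and 10.2% of genomic E-boxes. The BACH1 and PFKFB3 windows have this form. Counted over both sides of the hexamer, the base that followed it was C in 18.5% of sides in the BMAL1 regions, 36.6% in the HIF2α regions and 26.6% in the genome, and A in 26.0, 13.4 and 20.4%. These octamers were singled out of 10 after their values were seen.

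Other features split the groups in position or in smaller steps of sequence content. An HRE core outside the E-box was present within 100 bp of the summit in 35.0% of the BMAL1 regions and 50.7% of the HIF2α regions (difference −15.7, interval −29.9 to −0.735). The share was 44.9% over all regions. Distal regions without an E-box, counted by list, split in the same direction. They had 32.1% for BMAL1 and 63.0% for HIF2α in shCNT, and 29.1 and 53.1% under shBMAL1. The AP-1 site (TGAGTCA or TGACTCA), bound by JUN and FOS proteins, was present in 22.0% of the BMAL1 regions and 23.9% of the HIF2α regions (difference −1.94, interval −15.1 to 10.4). BMAL1 regions were intergenic in 44% of cases and HIF2α regions in 21.1% (difference 22.9, interval 8.57 to 35.4), where the share was 30.2% over all regions and 32.2% in distal regions without an E-box. HIF2α regions lay more often in non-coding genes, at 22.5 against 11.0% (difference −11.5, interval −23.5 to −0.362). Over all regions 12.0% did, and 12.6% of distal regions without an E-box. The share in introns of coding genes, 42.0 and 50.7%, had a difference whose interval included 0.

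A tandem E-box was rare. It was found in 4 of the 210 regions (1.90%, interval 0.743 to 4.79%), close to 2.37% of all E-boxes in the genome and 2.68% of the promoter E-box regions. All 4 had a shCNT BMAL1 peak, 3 of them kept it under shBMAL1, and none had a HIF2α peak. With so few regions the share could not be told from the genomic one.

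Across all 210 regions the summit lay in an intron of a coding gene in 100 (47.6%), between genes in 74 (35.2%), in a non-coding gene in 29 (13.8%), in a coding exon in 1 and in another exon of a coding gene in 6. The median distance to the nearest transcript start was 8048 bp, and 79 regions were within 5 kb. The E-box lay a median of 54.0 bp from the summit. GC content in the 201 bp around the summit had a median of 52.2%, higher than the 47.3% of distal regions without an E-box and lower than the 64.2% of promoter E-box regions. A promoter region with an E-box lay within 10 kb of 3 members (1.43%, interval 0.487 to 4.12%), where the share in distal regions without an E-box was 0.991%. On either side of the 1 kb limit, ECE1, SASH1 and PDE6A were left out at 944, 955 and 958 bp, and VLDLR, CRY2 and ID1 were taken in at 1023, 1052 and 1055 bp.

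Clock genes were the best represented of the gene lists examined. A member lay in or within 100 kb of 7 of 19 clock genes (36.8%), which were NR1D1, PER1, PER2, CRY2, HLF, BHLHE40 and BHLHE41. For NR1D1, PER1, PER2 and CRY2 that member was within 5 kb of a transcript start. Of 20149 coding genes, 639 (3.17%) had one within that distance. HIF target genes had one at 3 of 15 (EGLN3, NDRG1 and PFKFB3), lysosomal and TFE target genes at 1 of 10 (CTSD) and clock output genes at 0 of 6. HLF, which is also regarded as an output factor, was counted in the clock list, so the last count rests on that choice. The lists were put together with results of these data known, so the counts describe the members and were not tested.

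The 2 shCNT BMAL1 members with the highest −log10 p lay in genes of clock repressors and had no peak under shBMAL1. The intron of NR1D1, which encodes the repressor REV-ERBα, had a shCNT BMAL1 pileup of 53 and a fold enrichment of 23.2 (−log10 p of 65.3), rank 17 of the 2350 peaks in the list. No other list had a peak there. Its 60-base window holds a pair of E-boxes, of which 1 lay within 100 bp of the summit. An intron of CRY2, a repressor of CLOCK-BMAL1, had a pileup of 17 and a fold of 14.3 at rank 38, again in the shCNT BMAL1 list alone. PER1, whose product works with CRY, had an intronic member with a pileup of 14 and a fold of 7.95. That of PER2, nearer to ILKAP, was weak, with a pileup of 5 and a fold of 5.14. All 4 were in the shCNT BMAL1 list alone. They lay close to a transcript start, at 1341 bp for NR1D1, 1052 bp for CRY2 and 1251 bp for PER1. The PER2 member was 4006 bp from its nearest start, that of ILKAP. With a limit of 5 kb from every start all 4 would be left out.

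HLF and BHLHE41 went the other way. Upstream of HLF, a PAR bZIP output factor of the clock, a member with 3 E-boxes had a pileup of 19 in shCNT and 10 under shBMAL1 in the BMAL1 lists, with folds of 10.6 and 10.1. BHLHE41 encodes a repressor that itself binds E-boxes. An intergenic member within 100 kb of it, 7.46 kb from the SSPN start, had pileups of 12 and 6 and folds of 10.6 and 6.46. Pileups of named regions are not scaled for the different backgrounds of the lists. Divided by the genome-wide background of each list, they were 113 and 119 at the HLF member. At the member within 100 kb of BHLHE41 they were 71.6 and 71.5, so neither member was lower under shBMAL1 by more than a trace on that scale. Both members had a tandem E-box and no HIF2α peak. At BHLHE40, the close relative of BHLHE41, 2 members lay 14.8 and 46.7 kb from the start. The nearer had a shCNT HIF2α peak alone (pileup 6), and the farther a shCNT BMAL1 peak with a pileup of 10 and HIF2α peaks with a pileup of 6 under either hairpin.

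The third tandem member named here, in a non-coding gene on chromosome 13 whose nearest coding gene was UBE2L5, was in the shCNT BMAL1 list alone with a pileup of 15 and a fold of 13.7, rank 41. Together with NR1D1 and CRY2 it made up the 3 shCNT BMAL1 members with the highest −log10 p, and each was missing from the shBMAL1 BMAL1 list. By pileup HLF, which kept its peak, stood above CRY2 and this region, and of the 35 members in the top quartile of distal shCNT BMAL1 regions by −log10 p, 16 (45.7%) were kept.

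Of the 4 members at HIF target genes, those at NDRG1 and EGLN3 and the farther one at PFKFB3 had HIF2α peaks under both hairpins. The region 73.7 kb upstream of NDRG1, a hypoxia-induced gene, was the strongest HIF2α member in both lists, with pileups of 53 in shCNT and 45 under shBMAL1 and folds of 34.1 and 39.0. It ranked 17 and 4 in those lists, had a weak shCNT BMAL1 peak (pileup 7, fold 5.54) and no shBMAL1 BMAL1 peak. An intron of EGLN3, a prolyl hydroxylase that marks HIFα for degradation, had HIF2α pileups of 9 and 11 (folds 8.27 and 10.8) and no BMAL1 peak. PFKFB3, which makes the activator of the glycolytic enzyme phosphofructokinase, had 2 members. The one in its intron had BMAL1 pileups of 7 and 5 and a HIF2α pileup of 5 under shBMAL1 alone, while the one 75.2 kb away had HIF2α pileups of 11 and 9 and no BMAL1 peak.

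Of the 6 members in all 4 lists, the 3 with the highest −log10 p, a HIF2α value in each, had larger pileups for HIF2α than for BMAL1. In DIRC3, with TNS1, a focal adhesion protein, as the nearest coding gene 157 kb away, the pileups were 11 and 9 for BMAL1 and 43 and 23 for HIF2α, shCNT first, with folds of 6.36, 9.01, 25.7 and 21.0. Near PDGFA, which encodes a growth factor, they were 8 and 5 for BMAL1 and 22 and 11 for HIF2α. In an intron of AHDC1 the unscaled pileups were 4 and 6 for BMAL1 and 7 and 11 for HIF2α. The others did not all share this order. An intron of SH3TC2, among the 3 strongest shBMAL1 BMAL1 members by −log10 p, had BMAL1 pileups of 7 and 9 and HIF2α pileups of 6 and 6. In an intron of CUX1, named after its values were seen, they were 11 and 6 for BMAL1 and 10 and 11 for HIF2α, and in an intron of GSE1, named in the same way, 5 and 5 for BMAL1 and 12 and 11 for HIF2α. An intron of SYNPO, which encodes the actin-binding protein synaptopodin, had HIF2α pileups of 22 and 16 and a shCNT BMAL1 pileup of 6. Divided by background, its HIF2α pileups were 105 and 146.

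Among members with HIF2α peaks and no BMAL1 peak, an intron of BACH1, a repressor of heme-responsive genes, had pileups of 24 and 14. Near JUN, an AP-1 subunit, they were 18 and 11, and near ITGA5, an integrin subunit, 20 and 26. The 3 strongest HIF2α members lost under shBMAL1 lay in introns of RNF6 (pileup 12) and WHRN (pileup 11) and 37.6 kb from BIRC3, an inhibitor of apoptosis (pileup 10). All 3 had folds of 9.1 to 10.2, well under those of NDRG1 or TNS1. The strongest found only under shBMAL1 were in an intron of XPO4 (pileup 10), near EDN2, which encodes endothelin 2 (pileup 9), and in an intron of FAM193A (pileup 8). Another member near EDN2 had HIF2α peaks under both hairpins, with pileups of 5 and 7, and a shBMAL1 BMAL1 peak with a pileup of 4. The FAM193A region had BMAL1 peaks under both hairpins, with pileups of 7 and 5.

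The strongest BMAL1 member found only under shBMAL1 lay in an intron of PDE4A, a cAMP phosphodiesterase, with a pileup of 22, a fold of 18.0 and rank 67 of 4261. It was the highest distal E-box peak of that list. The next were in an intron of ERI1 (pileup 8, with a HIF2α pileup of 6 under shBMAL1) and near MOAP1 (pileup 7), so a wide gap separated PDE4A from the others. CTSD, a lysosomal protease gene, had a member 18.5 kb away with a BMAL1 pileup of 6 and a HIF2α pileup of 7, both under shBMAL1 alone.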

How the data were processed

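The libraries were CUT&RUN on A-498 cells. Per the labels and the methods of the study, the authors aligned reads to hg19 with Bowtie2 2.5.3, removed duplicates, called peaks with MACS2 2.2.9.1 at p 1e-05 and a maximum gap of 400, and removed blacklisted regions with bedtools 2.31.1. The control and any pooling of libraries were not given in the sources used here. The deposited lists give each peak a position, a fold enrichment ratio, a −log10 p and a score, and only the first 3 were used. Total depth is unknown. From fold and −log10 p, the pileup and background behind every peak were recovered, the pileup as whole fragments (tolerance 0.002 in −log10 p). Recovery and merging were tested on simulated data, and the interval of a difference on a published example.

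Regions, summits, E-boxes and annotation used GRCh37, which is hg19, with GENCODE release 44, in Python 3.11.15, pandas 2.3.3, pysam 0.24.0 and statsmodels 0.14.6. Lists held 2350 to 4261 peaks, and intervals cover counting error only, since there were no replicate lists. The members and gene lists were chosen with earlier results of these data known. Named were the 3 strongest members (by −log10 p) of each list, of all 4 lists, of each lost or gained class, of HIF2α without BMAL1 and of tandem E-boxes, and members within 100 kb of a listed gene. Alternatives changed the peak limit, merging, the start distance, the window, the summit and the list length.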

Additional observations from a re-analysis of the deposited data

How the results depend on the processing

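Of 149 recomputed values, 131 kept their direction and stayed within their interval (counts within 1.5 times). The count of regions was 125 at a −log10 p of at least 8, 131 beyond 5 kb of a start, 95 with a window of 50 bp and 363 with 200 bp. With lists of equal length the shares were 52.3% in shCNT BMAL1, 27.0% in shBMAL1 BMAL1 and 36.2% in shCNT HIF2α, and with a pileup of at least 5 the BMAL1 shares were 51.8 and 29.9%. The E-box share of shCNT BMAL1 and shBMAL1 BMAL1 distal regions was 4.36 and 1.62% with a window of 50 bp, 13.6 and 6.68% with 200 bp, and 10.6 and 4.30% with any summit. The difference in HIF2α share among shCNT BMAL1 members, −0.777 points, turned to 1.65 with summits within 200 bp, 0.643 with a 200 bp window and 3.56 with any summit, always with an interval that included 0. The difference in BMAL1 regions found again stayed negative throughout, but its interval also included 0 at a −log10 p of 8 (−9.09, −20.9 to 4.99), with peaks merged at 400 bp (−10.1, −19.9 to 0.730), beyond 5 kb (−9.67, −22.3 to 4.64) and with windows of 50 bp (−3.74, −17.1 to 10.9) and 200 bp (−7.42, −15.7 to 1.36). The search around the shCNT summit alone was added after the data were seen. The cause of these shifts was not tested.

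No paired analysis was possible because each group had 1 peak list, and for the same reason leaving out single replicates was not possible. The limit of detection differed between lists: the smallest pileup that passes at the genome-wide background was 3 or 4 fragments.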
